A study of Mus musculus with 7 samples.

Results

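The interferon response and antigen presentation genes described here are 34 of the 47729 genes in a count table of mouse forebrain. They were picked by symbol, as interferon-inducible genes and genes of MHC class I presentation, when the difference between the genotypes in these same libraries was already known. Differences between the genotypes in these 34 genes are therefore given as a description, and no test is read from them.

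Cells that sense viral nucleic acid secrete type I interferons, which bind the receptor chains Ifnar1 and Ifnar2 on the same and neighbouring cells. The kinases Jak1 and Tyk2 then phosphorylate Stat2, which works with Irf9 at a sequence called the interferon-stimulated response element in the promoters of antiviral genes. Interferon gamma signals through another receptor, acts at gamma-activated sites, and raises the MHC class I molecules that show peptides to T cells. In brain, microglia, astrocytes, endothelium and neurons can all mount this response.

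The study compared the forebrain transcriptome of mice with and without Lhx6, the LIM homeodomain factor of interneurons from the medial ganglionic eminence, to learn how the mutant cortex acts on the survival of grafted interneurons. RNA-seq libraries came from 4 control pools, Lhx6+/-, and 3 mutant pools, Lhx6-/-, at P15. The mutant allele was Lhx6tm2Vpa, of which controls carried 1 copy, the strain was F1(C57BL/6 X 129Sv), and each pool held 2 mice. Sex and RNA quality were recorded per pool but cannot be tied to a column of the table, which names only the genotype and a library number, for controls 2, 3, 10 and 11, and mutants 5, 12 and 13. Those numbers fall in a lower range (2, 3 and 5) and a higher range (10 to 13), and what the ranges stand for is not stated.

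Libraries held 32556304 to 38069151 expected counts, and 19684 genes had at least 10 counts in at least 3 libraries and were tested. Values below are normalized counts, which are counts scaled to a library of common size, unless another scale is named. Lhx6 stood at 476 to 615 in controls and 70.1 to 76.6 in mutants, so each library matched its label. In bulk RNA, fewer cells of a type and less RNA per cell cannot be told apart, and p-values measure only the spread between these pools. With edgeR's quasi-likelihood test, 585 genes were higher and 369 lower in mutants at a Benjamini-Hochberg adjusted p of 0.05.

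Promoter sequences are shown first because most of the antiviral members share a short pattern. The choice of genes did not use sequence. It did use the response to interferon, which acts at this element, so the share among members is not independent of the choice. RefSeq windows of 250 bases before to 50 after the transcription start (GRCm38.p6) were found for 27 of the 34 genes, in 33 windows. Dhx58, Usp18, Ifi27, Rtp4, Parp14, Tap2 and Nlrc5 had no entry. The core of the response element was searched as GAAANNGAA on both strands, and overlapping matches were allowed. The parts below lie wholly before the start, are written 5′ to 3′ on the strand of the gene, and have the core, or its reverse complement, in capitals.
Isg15, chr4:156200861-156200911, minus strand: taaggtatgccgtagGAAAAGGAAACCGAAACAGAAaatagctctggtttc
Ifit1, chr19:34640765-34640828, plus strand: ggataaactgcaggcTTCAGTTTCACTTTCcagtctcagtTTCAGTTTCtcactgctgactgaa
Ifit3, chr19:34583359-34583450, plus strand: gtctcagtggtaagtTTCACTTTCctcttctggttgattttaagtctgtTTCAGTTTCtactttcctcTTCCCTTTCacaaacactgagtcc
Rsad2, chr12:26456548-26456586, minus strand: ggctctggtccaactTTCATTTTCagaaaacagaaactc
Bst2, chr8:71537573-71537617, minus strand: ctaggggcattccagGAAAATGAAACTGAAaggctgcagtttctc
Gbp3, chr3:142559985-142560029, plus strand: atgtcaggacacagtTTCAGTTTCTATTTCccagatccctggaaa
Ifitm2, chr7:140955984-140956022, minus strand: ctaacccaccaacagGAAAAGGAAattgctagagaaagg
B2m, chr2:122147533-122147571, plus strand: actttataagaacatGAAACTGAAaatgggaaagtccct
Isg15, Ifit1 and Ifit3 each held 3 cores. Overlapping cores gave the long capital run of Isg15, while Rsad2, Ifitm2 and B2m held 1 each.

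The core was found in 18 of the 33 member windows (54.5%) and in 2812 of 32851 windows of the whole RefSeq table (8.56%). By gene, 16 of 27 members held it. Asking for 1 more A after the core left 17 member windows (51.5%) against 3.44% of all windows. The pattern of gamma-activated sites, TTCNNNGAA, was in 7 member windows (21.2%) against 8.30% of all, and 8 members held neither pattern. A match describes these letters in this window and is not a binding site.

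**Figure D1:**
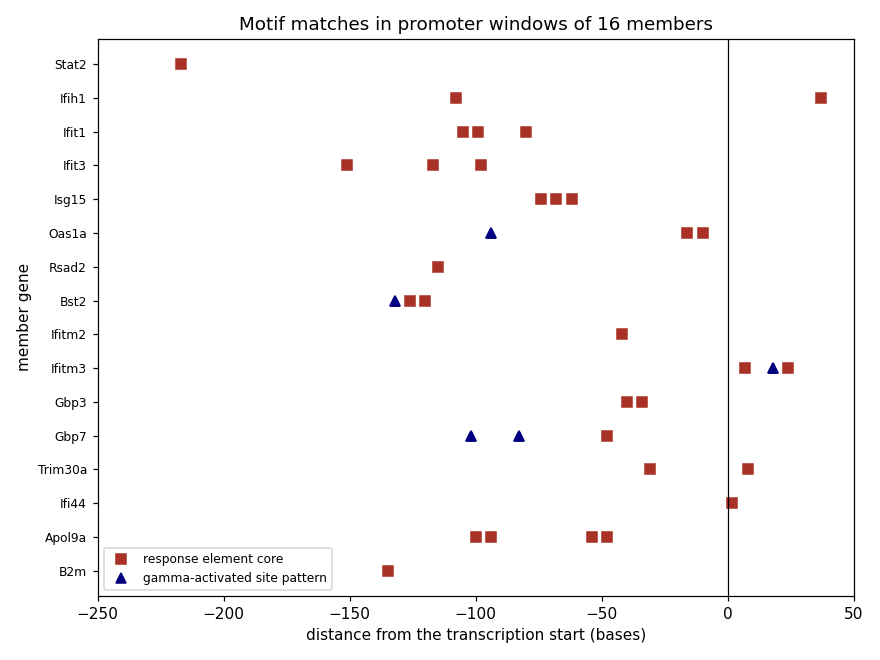
Positions of motif matches in the RefSeq promoter windows of the 16 members that hold the response element core; the horizontal axis is the distance from the transcription start in bases, squares are the core and triangles the gamma-activated site pattern, each placed from its own window's start (Apol9a and Trim30a have matches in 2 windows). Isg15, Ifit1 and Ifit3 carry 3 cores each, all before the start.

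Levels were compared between genes per kilobase of exon, taken as the union of a gene's exons. B2m, the invariant chain of MHC class I, was highest in controls at 1181 normalized counts per kilobase, followed by the membrane antiviral proteins Ifitm3 (251) and Ifitm2 (244), by Ifi27 (210), by the class I heavy chain H2-K1 (184) and by Stat2 (181). Lgals3bp stood at 93.8, Nlrc5 at 2.41 and Ifi202b, the lowest, at 1.03 per kilobase. The order between the ends depends on the length used. Per kilobase of mean transcript length, B2m stayed first and Ifi202b last, but H2-K1 (427), Ifi27 (422) and Lgals3bp (278) came before Ifitm3 (251) and Ifitm2 (244), and the second lowest was Apol9a (3.20), with Nlrc5 at 7.22. In no control library did Ifi202b exceed 3 counts.

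Across the genotypes, most members showed 1 of 3 patterns. In 17 of 34, mutant libraries 12 and 13 lay above the highest control while mutant 5 did not, a pattern seen in 4.68% of all genes tested. In 9, all 3 mutant libraries lay above all 4 controls (10.7% of all genes), and in 3 all mutants lay below (9.0%). The groups overlapped in 22 members, the 17 and 5 more (Irf9, Oas1a, Ifi27, Psmb9 and Nlrc5).

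Counted by library, 29 members in mutant 12 and 26 in mutant 13 were above the highest control, against 9 in mutant 5. Over all genes tested these shares were 22.9%, 22.4% and 24.5%, so that mutant 5 did not stand low in general. Mutant 12 was the highest mutant library for 27 members (32.1% of all genes), and mutant 5 was below the lowest control for 10 (22.7% of all). The median ratio of a member to its control mean was 0.97 in mutant 5, 2.24 in mutant 12 and 1.65 in mutant 13, where that of all genes was 1.00, 0.99 and 0.99. At least 2 times the control mean was reached by 18 members in mutant 12 (3.23% of all genes), 9 in mutant 13 (2.92%) and 2 in mutant 5 (4.02%), the last being Ifi202b and Apol9a.

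**Figure D2:**
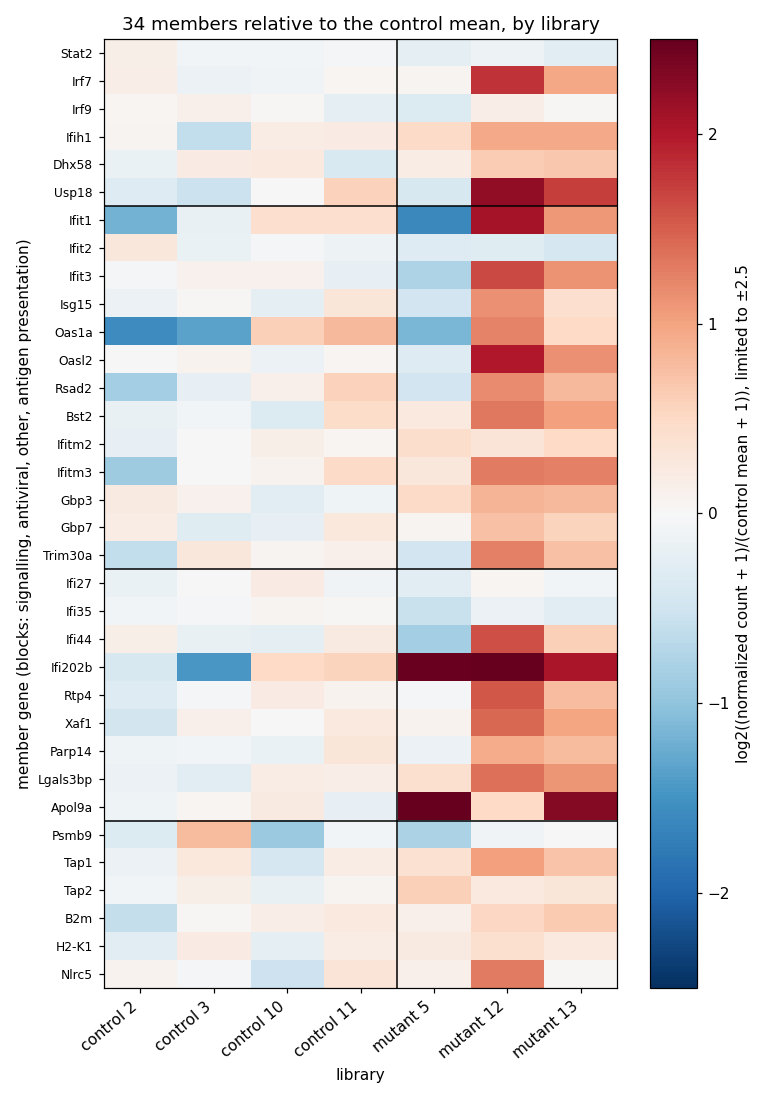
Each of the 34 members (vertical axis, in blocks by role) in each of the 7 libraries (horizontal axis), coloured by the log2 ratio of its normalized count plus 1 to the control mean plus 1, limited to ±2.5. Mutants 12 and 13 are red over most antiviral genes and mutant 5 is pale or blue there, while Ifi202b is red in all 3.

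The members that sense nucleic acid or carry the signal were split. Irf7, the factor that amplifies type I interferon production, stood at 46.1, 37.2, 38.4 and 42.7 in controls 2, 3, 10 and 11 and at 43.1, 147 and 81.4 in mutants 5, 12 and 13. Usp18, a protease that strips Isg15 from proteins and restrains the receptor, was at 14.3, 12.1, 18.2 and 27.4 in controls and 13.4, 86.9 and 61.5 in mutants. For both, mutants 12 and 13 were above every control and mutant 5 lay within the range of controls, and the log2 fold changes were 1.14 ± 0.36 (SE) for Irf7 and 1.57 ± 0.56 for Usp18. Ifih1, the cytosolic sensor of long double-stranded RNA also called MDA5, was at 127, 79.3, 138 and 140.3 in controls and 169, 234 and 235 in mutants, with no overlap and a log2 fold change of 0.81 ± 0.22. Dhx58, a sensor of the same family, was at 28.5, 37.2, 38.4 and 24.4 in controls and 36.4, 50.7 and 52.1 in mutants.

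Stat2 and Irf9, which carry the type I signal to DNA, did not share the pattern. Stat2 was at 884, 763, 764 and 779.6 in controls and 676, 726 and 662 in mutants, lower in all 3 mutants by a log2 difference of -0.21 ± 0.09. Irf9 was at 376, 396, 369 and 308 in controls and 287, 408 and 368 in mutants, so the groups overlapped.

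Among antiviral effectors, the Ifit genes, whose products bind foreign RNA ends, lie side by side on chromosome 19 and differed from each other. Ifit1 (chr19:34640871-34650009) was at 12.1, 25.1, 38.4 and 38.6 in controls and 8.62, 124 and 61.5 in mutants. Ifit3 (chr19:34583531-34588731) was at 94.3, 105, 106 and 84.4 in controls and 56.5, 307 and 212 in mutants. In both, mutant 5 was below all controls and the other mutants above all of them, and mutant 12 was 14.4 times mutant 5 for Ifit1 and 5.44 times for Ifit3. Ifit2 (chr19:34550694-34576419), in contrast, was at 313, 227, 252 and 234 in controls and 205, 207 and 192 in mutants, below every control in all 3. Its mutant libraries differed by little, and neither of its promoter windows held the response element core that Ifit1 and Ifit3 carry 3 times. Whether the core has a part in these levels was not tested.

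Oasl2 and Isg15 showed the same division as Ifit1 and Ifit3. Oasl2, of the oligoadenylate synthetase-like family, was at 65.8, 69.3, 58.5 and 67.1 in controls and 51.7, 265 and 145 in mutants. Isg15, the ubiquitin-like modifier, was at 36.2, 41.2, 33.6 and 49.8 in controls and 28.7, 90.0 and 54.0 in mutants. Mutant 5 was again below all controls for both genes, and mutant 12 was 5.12 times mutant 5 for Oasl2 and 3.13 times for Isg15. Rsad2, or viperin, was at 17.5, 28.1, 35.5 and 48.8 in controls and 22.99, 74.5 and 57.8 in mutants, with mutant 5 within the range of controls. Oas1a, a synthetase of the messenger that activates RNase L, was at 3.29, 4.02, 18.2 and 21.3 in controls and 4.79, 29.0 and 17.0 in mutants, of which mutant 12 alone lay above all controls. In Oas1a and Rsad2 all 3 libraries of the lower number range lay below all 4 of the higher range, as in 6 of 34 members (Usp18, Ifit1, Rtp4 and B2m the others) and 10.9% of all genes. Of the words of 36 bases in Oas1a, 65.7% occur in other genes, chiefly its copy Oas1g.

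For the genes of 3 restriction proteins that act on virus at membranes, mutant 5 was not below the lowest control. Bst2, or tetherin, which holds budding virus at the cell surface, was at 39.5, 43.2, 35.5 and 63.0 in controls and 53.6, 115 and 93.7 in mutants. Ifitm3, which blocks fusion of virus in endosomes, was at 92.1, 169, 182 and 239 in controls and 209, 422 and 412 in mutants. Its relative Ifitm2 was at 133, 153, 169 and 158 in controls and 209, 190.4 and 217 in mutants. Ifitm2 did not overlap between the groups, although 53.4% of its 36-base words are shared with other genes, and mutant 5 was not its lowest mutant. Trim30a, a ubiquitin ligase, was at 32.9, 62.3, 53.7 and 55.9 in controls and 36.4, 123 and 86.2 in mutants.

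Gbp3 and Gbp7 encode guanylate-binding proteins, GTPases that act on pathogen vacuoles, and are neighbours on chromosome 3. Gbp3 (chr3:142560026-142573209) was at 162, 149.6, 115 and 128 in controls and 193, 253 and 244 in mutants, all mutants above all controls, with a log2 fold change of 0.73 ± 0.17. Gbp7 was at 209, 148.6, 160.2 and 221 in controls and 193, 307 and 271 in mutants. Mutant 5 lay within the range of controls for Gbp7 and above it for Gbp3.

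**Figure D3:**
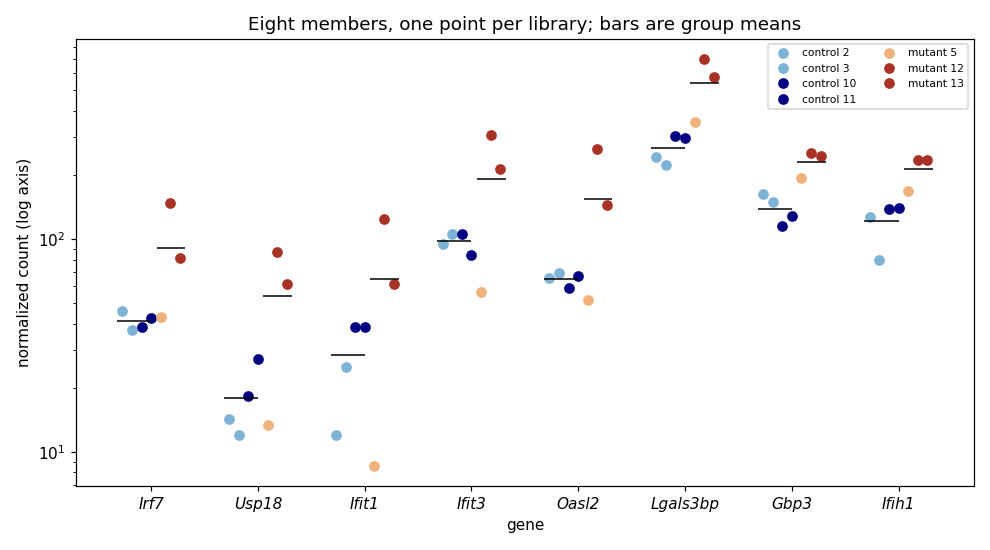
Normalized counts on a log axis for 8 members, 1 point per library, with lines at the group means. Mutant 5 lies among or below the controls for Irf7, Usp18, Ifit1, Ifit3 and Oasl2 and above all controls for Lgals3bp, Gbp3 and Ifih1.

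Other interferon-inducible members included genes with and without overlap between the genotypes. Lgals3bp, a secreted binder of galectins, was at 242, 223, 304 and 299 in controls and 353, 699 and 576 in mutants. All mutants were above all controls, mutants 12 and 13 by the larger distance, and the log2 fold change was 1.02 ± 0.23. Ifi44 was at 31.8, 25.1, 23.99 and 33.5 in controls and 15.3, 89.0 and 43.6 in mutants, so that mutant 5 was lowest of all 7 libraries. Xaf1, a pro-apoptotic factor, was at 82.3, 125, 114 and 135 in controls and 122, 308 and 225 in mutants. Rtp4, a receptor chaperone, was at 25.2, 31.1, 36.5 and 33.5 in controls and 30.7, 94.2 and 54.9 in mutants, and Parp14, an ADP-ribosyltransferase, at 87.7, 89.4, 84.4 and 115.9 and at 85.3, 180.1 and 165. Those 3 genes showed mutants 12 and 13 above and mutant 5 among the controls.

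A pair of members with no such pattern lay in the same block. Ifi27 was at 275, 309, 355 and 291 in controls and 254.8, 318 and 293 in mutants, with overlapping groups, and Ifi35 at 63.6, 65.3, 70.0 and 68.1 against 45.02, 60.0 and 54.9, with all mutants below all controls.

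Ifi202b and Apol9a had few reads. Ifi202b, a DNA-binding member of the interferon-inducible p200 family, was at 1.10, 0, 2.88 and 3.05 in controls and 14.4, 15.5 and 10.4 in mutants. It entered the test through the mutant libraries alone, and its 7 control and 41 mutant counts gave a ratio of 7.51 (95% exact counting interval 3.34 to 19.9, which covers counting error only). Apol9a, an apolipoprotein L gene, was at 4.39, 5.02, 5.76 and 4.07 in controls and 38.3, 7.25 and 27.5 in mutants, and missed the minimum for testing. For this gene mutant 12 was the lowest mutant, the reverse of the order of the antiviral genes. Its near copy Apol9b was at 2.19, 8.03, 2.88 and 5.08 in controls and 49.8, 30.0 and 28.4 in mutants. Reads may be split between the copies, and their sum, taken after the data were seen, was 6.58, 13.1, 8.63 and 9.15 in controls and 88.1, 37.3 and 55.9 in mutants, highest in mutant 5.

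The 6 antigen presentation members had log2 fold changes from -0.26 (Psmb9) to 0.74 (Tap1), with a median of 0.41. B2m was at 676, 1042, 1141 and 1205 in controls and 1104, 1447 and 1597 in mutants, with mutant 5 among the controls. H2-K1 was at 401, 556, 412 and 548 in controls and 557, 630.3 and 566 in mutants. H2-K1 did not overlap, but mutant 5 cleared the highest control by less than 1 normalized count.

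Tap1 and Tap2 form the peptide pump of the endoplasmic reticulum and lie within the MHC region of chromosome 17. Tap1 (chr17:34187553-34197225) was at 70.2, 94.4, 58.5 and 89.4 in controls and 102, 159 and 129 in mutants. Tap2 (chr17:34203527-34216321) was at 172, 199.8, 159 and 189 in controls and 271, 212 and 222 in mutants. All mutants were above all controls for both pump genes, with mutant 12 highest for Tap1 and mutant 5 highest for Tap2, and the log2 fold changes were 0.74 ± 0.22 and 0.38 ± 0.14. Psmb9, a catalytic subunit of the immunoproteasome that overlaps Tap1 in the genome, was at 25.2, 56.2, 16.3 and 30.5 in controls and 18.2, 30.0 and 32.2 in mutants. Nlrc5, the transactivator of MHC class I genes, was at 19.7, 18.1, 12.5 and 23.4 in controls and 20.1, 46.6 and 18.9 in mutants, high in mutant 12 alone.

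The class I heavy chain H2-D1, not a member, rose. It was at 896, 1113, 808 and 941 in controls and 1469, 1547 and 1382 in mutants, and its log2 fold change of 0.64 ± 0.11 had an adjusted p of 0.0151 by edgeR's quasi-likelihood test. Leaving out mutant 5, mutant 12 or mutant 13 ended this call. All mutants lay above all controls, with mutant 5 in the middle, and 21.8% of the 36-base words of H2-D1 occur in other genes. Psmb8, the other immunoproteasome subunit of the region, was at 53.7, 72.3, 65.2 and 55.9 in controls and 52.7, 86.9 and 93.7 in mutants (adjusted p = 0.543).

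**Figure D4:**
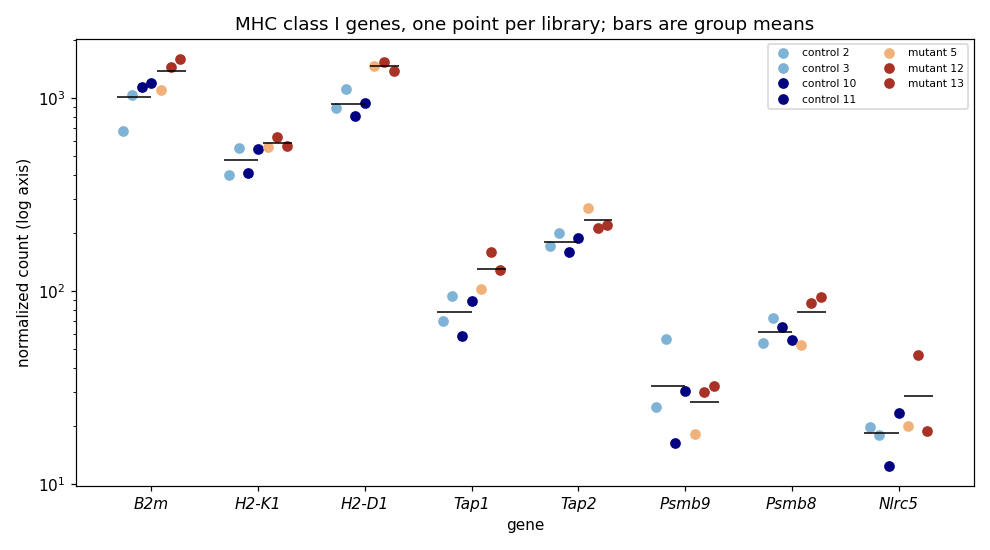
Normalized counts on a log axis for genes of MHC class I presentation, 1 point per library, with lines at the group means; H2-D1 and Psmb8 are not members. H2-D1, Tap1, Tap2 and H2-K1 do not overlap between the genotypes, and Psmb9 does.

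In the fit across all genes, 27 of the 33 tested members had a positive and 6 a negative log2 fold change, with a median of 0.66 against -0.013 for all genes. Of the members, 3 passed the adjusted threshold, all higher in mutants (Gbp3, Ifi202b and Lgals3bp), where 4.85% of all genes were called; nothing is read from this count, since the contrast also chose the members. The called member nearest the threshold was Ifi202b, at 0.0456, and the nearest outside was Ifih1, at 0.0798. DESeq2 called 8 of 33 (Irf7, Ifih1, Oasl2, Ifitm3, Gbp3, Ifi202b, Xaf1 and Lgals3bp), against 8.79% of all genes. Calls were 2 by limma-voom (Gbp3 and Ifi202b, against 4.89%), 2 by edgeR with no filter (Lgals3bp and Apol9a, against 2.46%) and 2 by edgeR with 10 counts asked of all 7 libraries (Gbp3 and Lgals3bp, against 5.97%).

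Leaving out mutant 5 made the fold changes of the divided genes larger and their errors smaller, except the errors of Dhx58 and B2m. Those genes were grouped by mutant 5 not lying above the controls, so larger values and more calls without it follow partly from the grouping. The log2 fold change of Usp18 was then 2.04 ± 0.35, that of Oasl2 1.66 ± 0.24 and that of Ifit3 1.42 ± 0.19, and the median over 32 members was 0.88. Calls were then 6 (Irf7, Usp18, Ifit3, Oasl2, Xaf1 and Lgals3bp) where 2.37% of all genes were called, and 14 by DESeq2, a fit added after the data were seen, where 5.71% were. Without mutant 12 the median was 0.41 and without mutant 13 it was 0.61, with 0 members called by edgeR in either case (5 and 11 at an unadjusted p of 0.05). Ifi202b missed the count minimum when any mutant was left out, so it was not tested in those fits. Calls were also 0 without control 2, 10 or 11 (13, 13 and 17 unadjusted) and 1, Ifi202b, without control 3; DESeq2 was not run on these subsets. At 0.49 the median with the range of library numbers as a covariate was lower than without it, and 5 members were called where 11.2% of all genes were.

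**Figure D5:**
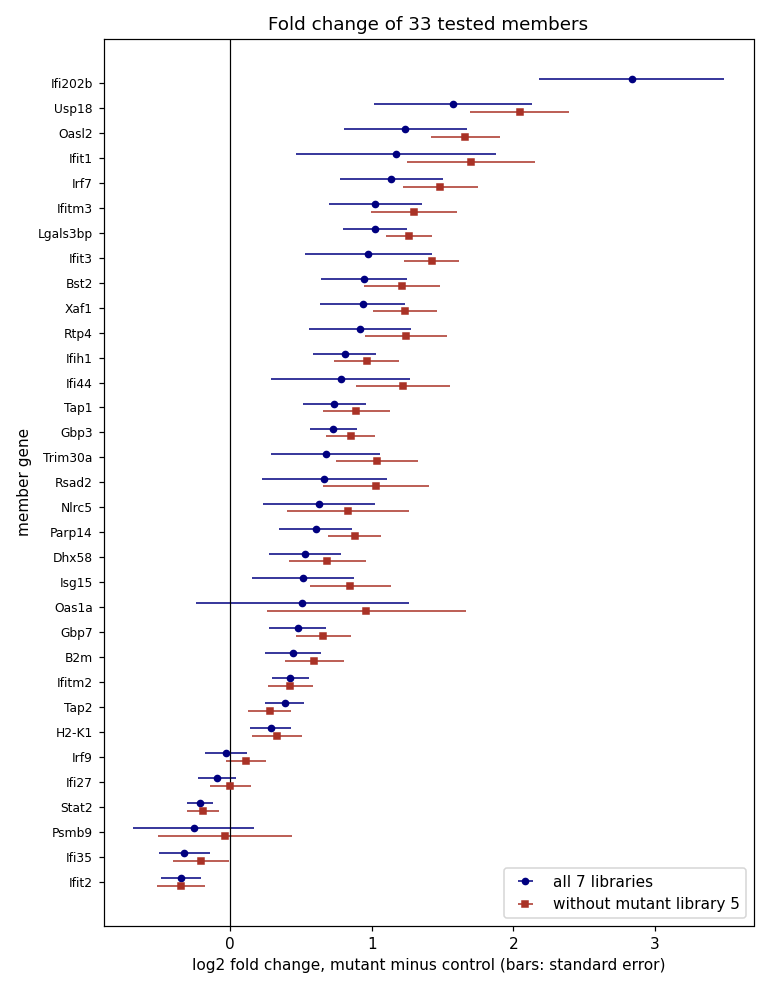
Log2 fold change of the 33 tested members, mutant minus control, with standard errors as bars, from all 7 libraries (circles) and without mutant 5 (squares). Most squares lie to the right of their circles with shorter bars; Ifi202b has no square, as it missed the count minimum without mutant 5.

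Within the lower range of library numbers, where mutant 5 stood against controls 2 and 3, the median log2 difference of members was 0.08. Within the higher range, mutants 12 and 13 against controls 10 and 11, it was 0.74. Controls 10 and 11 were both above controls 2 and 3 for 12 of 33 members (26.7% of all genes) and both below for 2 (25.1% of all genes). A test of whether the genotype difference itself differed between the ranges (interaction term in edgeR, added after the data were seen) passed for 0 of 33 members and for 0.0152% of all genes, with 9 members at an unadjusted p of 0.05, where 2.64% of all genes were. The member with the smallest p was Ifit3, with a difference between the ranges of 2.27 on the log2 scale. Mutant 5 was the only mutant library in the lower range, so the spread in this test came from the other groups. The members had already been seen to divide at mutant 5, so the 9 members restate that division. Nothing is read from these counts, either for or against a difference between the ranges. With a single mutant library in the lower range, library and range cannot be told apart.

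The promoter core and the pattern over libraries were set side by side. Among the 16 members with the core, 10 showed mutants 12 and 13 above the controls and mutant 5 not, and among the 11 without it 3 did (Irf7, Oasl2 and Xaf1). The median log2 fold change was 0.67 with the core and 0.74 without. Of the called members, Gbp3 holds the core and Lgals3bp and Ifi202b do not.

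Interferon transcripts themselves were at the limit of detection. Of 21 genes for type I, II and III interferons, none could be tested, 17 had no count in any library and the largest count was 3. Ifnb1 was at 1.04 in mutant 12 and 0 elsewhere, and Ifng at 3.01 in control 3, 0.96 in mutant 5, 0.95 in mutant 13 and 0 elsewhere. With 0 counts seen, up to 3 are still possible (0.0788 to 0.0921 CPM), so low interferon expression was not detectable at this depth.

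Receptors and kinases differed by little. With edgeR's quasi-likelihood test 0 of 6 receptor genes were called (0 at an unadjusted p of 0.05, 0 by DESeq2), and their median log2 fold change was 0.035. Ifnar1 was at 1978 to 2379 in controls and 2019 to 2371 in mutants, Ifnar2 at 447 to 513 and 487 to 521, Ifngr1 at 513 to 574 and 584 to 651, and Ifngr2 at 1986 to 2378 and 1875 to 2091. Ifngr1 did not overlap (adjusted p = 0.332). Il10rb was at 192 to 223 in controls and 181 to 229 in mutants, and Ifnlr1 at 5.48 to 20.3 and 9.58 to 24.6. Jak1 was at 5145 to 5626 in controls and 5165 to 5322 in mutants, and Tyk2 at 527 to 597 and 535 to 558. Irf3, the factor activated by sensors before any interferon is made, was at 465 to 508 in controls and 392 to 408 in mutants, all mutants lower, with an adjusted p of 0.157. Irf1 was at 103 to 126 in controls and 106, 169 and 148 in mutants, again with mutants 12 and 13 above.

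Of 175 other genes of the pathway, 137 were tested and 6 rose, against 2.97% of all genes, and 0 fell (DESeq2 called 1 lower). All 6 had every mutant above every control, as in 10.7% of all genes, and being called favours such separation. Without control 2 or control 10 edgeR called 2 (Apol9b and H2-D1), without mutant 5 it called 3 (Irgm1, Lgals9 and Tor3a) and without mutant 12 or mutant 13 it called 0 (11 and 17 at an unadjusted p of 0.05). Apol9b missed the count minimum when any mutant was left out, so it was not tested in those fits. Apol9b had the largest fold change, 2.95 on the log2 scale (adjusted p = 0.00868). Like Ifi202b, it entered the test through the mutant libraries alone, with 2 to 8 counts in controls and 29 to 52 in mutants. Irgm1, a GTPase of autophagy, was at 133 to 189 in controls and 228 to 312 in mutants (0.83, adjusted p = 0.0344), and Tor3a, a torsin, at 152 to 221 and 288 to 395 (0.81, adjusted p = 0.0299). Lgals9, a galectin, was at 204 to 226 in controls and 299 to 330.5 in mutants (0.58, adjusted p = 0.0184). Eif2ak2, the double-stranded RNA-dependent kinase PKR, was at 296 to 387 in controls and 473 to 518 in mutants, with its highest value in mutant 5 (0.54, adjusted p = 0.0395). H2-D1 was the sixth.

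The called genes were spread over the lists. Effectors gave 3 of 54 tested, nucleic acid sensing 1 of 17, the inducible GTPases 1 of 14 and MHC class I presentation 1 of 21. The lists of receptors (6), JAK, STAT and IRF signalling (11), chemokines and surface ligands (3) and MHC class II presentation (11) gave 0, with 2 of the 11 class II genes, 2 of the 11 signalling genes and 2 of the 3 chemokine and ligand genes at an unadjusted p of 0.05; DESeq2 called 0 in each. Of the close copies of members, Ifit3b was at 43.7 to 63.3 in controls and 53.6, 146 and 94.7 in mutants, and Trim30d at 9.59 to 18.6 and 12.5, 40.4 and 33.1, both with mutants 12 and 13 above all controls. Ifitm1 was at 11.05 to 50.9 in controls and 30.7, 78.7 and 49.2 in mutants, and Oas1g, too low to test, at 1.02 to 4.02 and 0, 8.28 and 6.63.

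Markers of cells that can mount the response were measured beside it. Reactive astrocyte genes moved with genotype: 6 of 10 rose (Gfap, Vim, Serpina3n, Cd44, Osmr and Timp1), against 2.97% of all genes. The list summed to 10181 to 11710 in controls and 34173, 30262 and 35442 in mutants 5, 12 and 13. A single gene with a count of 28777 in a mutant library made up most of that library's sum. The median log2 fold change over the list was 0.83. Leaving out mutant 5, mutant 13 or control 11 ended the calls of Osmr and Timp1 and left 4. Without control 10 the call of Timp1 ended, and without control 2 that of Osmr, which left 5 in each case. Between the sums of the other two mutants lay that of mutant 5. Of 18 tested microglial identifiers Cd68 rose and Fcrls fell (Cd68 alone without mutant 5, 0 without mutant 12 or 13, with 6 and 4 at an unadjusted p of 0.05), and the list summed to 20095 to 20363 in controls and 17664, 19569 and 19946 in mutants. Endothelial genes summed to 11476 to 12675 and 14477 to 15337, with 0 of 12 called (7 at an unadjusted p of 0.05, 4 by DESeq2). With the number range as a covariate 7 endothelial genes were called, all higher, and without control 3 there were 2 (Cdh5 and Pecam1). Mural genes summed to 7565 to 8380 and 9233 to 11356, with Tagln called. Of the mural genes 0 were called without control 10, control 11, mutant 5 or mutant 13 (4, 5, 4 and 3 at an unadjusted p of 0.05), Pdgfrb alone without control 2, and both without control 3; DESeq2 called 4. What part these cells have in the members' levels was not tested.

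Transcripts of immune cells from blood were few. Of 16 genes of T, B and NK cells, 8 had at most 3 counts in every library, and the list summed to 272 to 372 in controls and 353 to 384 in mutants. Genes of monocytes, neutrophils and border macrophages summed to 469 to 613 and 508 to 572. Haemoglobin and other blood genes summed to 11709, 12382, 32103 and 31006 in controls 2, 3, 10 and 11 and 6337, 18883 and 16250 in mutants 5, 12 and 13. Of these 5 genes 0 were called by edgeR, and all 5 were called lower with the number range as a covariate. The part of blood genes in the members' levels was not tested. Of 7 oligodendrocyte genes, 3 fell (Mbp, Mag and Cnp), but 1 (Mbp) was called without mutant 5 and 0 without mutant 13 (6 at an unadjusted p of 0.05), and DESeq2 called 5. Astrocyte, meningeal fibroblast and choroid plexus genes gave 0 calls of 9, 6 and 5 by edgeR (3, 2 and 1 at an unadjusted p of 0.05; 2, 1 and 0 by DESeq2), and markers of forebrain neurons were present in every library.

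By position, the members lay on 16 chromosomes, 4 of them in the MHC region of chromosome 17. Ifih1 and B2m share chromosome 2 with Lhx6, at 26.5 and 86.0 Mb from it. In 6 members over 15% of 36-base words were shared with other genes (Oas1a, Ifit3, Ifitm2, Apol9a, H2-K1 and Ifitm3), so their counts are less certain. Irf7, Irf9, Dhx58, Usp18, Gbp7, Ifi35, Psmb9, Tap1 and Tap2 overlap other genes. Irf9 and Gbp7 do so on the same strand, where reads cannot be assigned by strand, and the others on the opposite strand, where they cannot be told apart if strand was not kept.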

How the data were processed

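Single-end 36 bp reads of P15 forebrain RNA (TruSeq RNA kit) were trimmed by the authors with cutadapt 1.9.1 and aligned with Bowtie2 2.2.9 to GRCm38 transcripts (Ensembl 84). The values are the deposited expected counts per gene from RSEM 1.2.31, not normalized, which share reads among copies. Columns holding the authors' own comparison (fold changes and p-values from DESeq2) were not used. The members, the gene lists and the range of library numbers were chosen with earlier results of these data known.

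Expected counts were rounded (32.9 to 36.0% were not whole). After a filter of 10 or more counts in 3 or more libraries, TMM factors were computed and genotypes compared in edgeR 4.0.16 in R 4.3.3 (quasi-likelihood F-test, genotype only, Benjamini-Hochberg adjustment over 19684 genes, threshold 0.05). DESeq2 1.42.0 and limma-voom (limma 3.58.1), other normalizations and filters, unrounded counts, leave-one-out fits and a covariate for the number range were alternatives. The scripts were tested on simulated data. Libraries of a genotype differed by more than sampling noise (chi-square per degree of freedom 9.36 to 65.9), so each counted as 1 replicate. The floor of 3 counts is 0.0788 to 0.0921 CPM.

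All members are named. Of the pathway lists, the receptors, Jak1, Tyk2, Irf1, Irf3, Ifnb1, Ifng, close copies of members and called genes (up to 15 per direction) are named, and of the markers called genes; some genes under this rule are not reported here. Shared words came from GENCODE M21 transcripts, positions from the deposited annotation and promoters from RefSeq.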

Additional observations from a re-analysis of the deposited data

Results flagged for a closer look

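Among 56 groups of 4 control libraries, 1 library stood far from the other 3 in 4 cases by Dixon's test of the gap over the range; chance flags about 1 in 20 groups. Stat2 was at 883.9 in control 2, with the nearest control at 779.6, Parp14 at 115.9 in control 11 (nearest 89.4), Ifnar2 at 447.2 in control 11 (nearest 510.1), and Jak1 at 5626 in control 10 (nearest 5215). Mutants, with 3 libraries, were not examined in this way.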

How the results depend on the processing

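No paired analysis was possible because the columns of the count table carry no replicate number of the labels. Members called, 3 in all, were 2 by limma-voom, with no filter and with the filter on all 7 libraries, 8 by DESeq2, 5 with the covariate for the number range, 14 by DESeq2 without mutant 5 (an alternative chosen after seeing the data), and 0 to 6 when 1 library was left out. The median log2 fold change of members stayed positive in all fits, 0.41 to 0.88 when 1 library was left out, and was 0.082 within libraries 2, 3 and 5. Genes called were 1731 by DESeq2 (1002 higher, 729 lower), 2205 with the covariate (1213 higher, 992 lower) and 302 to 971 with 1 library left out (223 to 589 higher, 79 to 382 lower). Other pathway genes called higher were 0 to 6 with 1 library left out and 10 by DESeq2 without mutant 5; 1 was called lower by DESeq2 and 1 with the covariate. Each leave-one-out fit has fewer samples, and those without a mutant did not test Ifi202b or Apol9b. The cause of the other shifts was not tested.

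Signs turned for pathway genes near 0: Ifnar1 (-0.020 to 0.096 with 1 library left out), Ifnar2 (-0.012 to 0.063), Tyk2 (-0.052 to 0.0077), Jak1 (-0.021 to 0.023, and 0.018 with upper quartile normalization) and Il10rb (-0.090 to 0.069, 0.014 with upper quartile normalization and 0.020 with the covariate). Depth limits Ifi202b, Apol9a and the interferon genes, among others.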
